A study of Mus musculus with 5 samples.

Results

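Expression of the metallothioneins *Mt1* and *Mt2*, of the zinc exporter *Slc30a1* and of *Mtf1*, the transcription factor that answers to metal, was followed across 5 Tag-seq libraries of the mouse heart at E10.5. These 4 genes of the 24303 in the reference were chosen by the measured difference of *Mt2* between the chambers and the canal, the largest of any gene, so that contrast is described here without a test of the members. Of the 4 genes 3 gave tags, among 13486 genes with a tag in at least 1 library. Tag-seq cuts cDNA with NlaIII at CATG and reads the 17 bases that follow, and each distinct sequence, called a tag type, was listed with its count. Levels are given as tags per 1000000 of all deposited tags (TPM).

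The wild-type libraries came from C57BL/6 embryos (from C57BL/6J females, per the methods of the study) and held the atrio-ventricular canal (AVC), the outflow tract (OFT), the atria or the ventricles. The AVC and OFT are the regions that form the endocardial cushions from which valves and septa arise. The *Twist1* null library came from the AVC of *Twist1* Knockout embryos kept on an ICR background, so strain and genotype cannot be told apart in it. Tissue of several litters was pooled for each library, the hearts were pierced and rinsed of blood, and every group has 1 library. Each p therefore compares 2 libraries and not 2 conditions, and in such bulk tissue fewer cells of a type and less RNA per cell cannot be told apart.

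Metallothioneins are small cysteine-rich proteins that bind zinc and copper in the cytosol and buffer the cell against an excess of either. When free zinc rises, MTF1 binds it and activates genes through short metal response elements in their promoters, with *Mt1*, *Mt2* and *Slc30a1* as its best known targets. SLC30A1 then carries zinc out across the plasma membrane. In the embryo, metallothioneins are known for their high expression in visceral endoderm and fetal liver.

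The tags that carry the results are shown first, since each gene was read at particular sites, and capitals mark the CATG where NlaIII cuts. All are on the plus strand of GRCm38.
*Mt2* last site, chr8:94173529-94173549: CATGtaactgacaataaaagc
*Slc30a1* last site, chr1:191913137-191913157: CATGaggctttatggattgtt
*Slc30a1* upstream site, chr1:191910065-191910085: CATGataaaaattagggggat
*Mtf1* most abundant site, chr4:124805046-124805066: CATGccaagaaacattgaagg
*Mtf1* downstream site, chr4:124849114-124849134: CATGggaacaacggacttcca
The *Mt2* tag and both *Slc30a1* tags lie in the 3′ UTR, the most abundant *Mtf1* tag lies in coding sequence and the other *Mtf1* tag in the 3′ UTR. Among all annotated transcripts each of these 5 tags belongs to 1 gene.

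*Mt1* (chr8:94179082-94180327) could not be measured. Its RefSeq-linked transcript holds 0 CATG sites, so NlaIII leaves no tag, and the site found in 1 of its 3 annotated transcripts had 0 tags in all 5 libraries. Nothing can be said about the level of *Mt1* from these files. *Mt3* and *Mt4*, the metallothioneins of brain and of stratified epithelium, have 1 and 3 tag types of their own in the reference, and neither had a listed tag. All metallothionein values below are thus values of *Mt2*.

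The metal response elements that MTF1 reads were searched for as TGCACNC or TGCGCNC on both strands, in RefSeq windows (GRCm38.p6) from 250 bases before to 50 bases after the start of each gene. The window of *Mt2* held 4 matches, that of *Mt1* 3, that of *Slc30a1* 2 and that of *Mtf1* 0. Of 32851 windows of the same length 25.7% held at least 1 match, 7.11% at least 2, 1.97% at least 3 and 0.517% at least 4. The sequence upstream of the neighbouring metallothionein genes is shown with the matches in capitals. Whether these matches are the elements through which the genes are known to respond to zinc was not tested.
*Mt2* upstream, chr8:94172368-94172617, plus strand: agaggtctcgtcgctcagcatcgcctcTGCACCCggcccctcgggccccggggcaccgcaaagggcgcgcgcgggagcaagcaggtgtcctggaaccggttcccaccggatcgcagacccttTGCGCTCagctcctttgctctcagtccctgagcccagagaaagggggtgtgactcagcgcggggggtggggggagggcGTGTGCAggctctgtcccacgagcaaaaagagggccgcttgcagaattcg
*Mt1* upstream, chr8:94178839-94179081, plus strand: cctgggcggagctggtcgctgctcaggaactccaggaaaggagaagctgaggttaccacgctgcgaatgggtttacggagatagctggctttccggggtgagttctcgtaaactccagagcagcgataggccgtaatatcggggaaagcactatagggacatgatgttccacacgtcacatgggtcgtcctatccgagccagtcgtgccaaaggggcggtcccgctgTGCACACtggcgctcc
Both stretches end before the first annotated start of the gene, and positions are counted from the RefSeq start. In *Mt2* the matches begin 223, 128 and 50 bases before the start, with the last on the minus strand, and the fourth begins at base 5 after it. The match shown for *Mt1* begins 23 bases before the start and its other matches at bases 3 and 21 after it. A match is a stretch of letters and was not tested as a binding site.

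*Mt2* (chr8:94172664-94173568) stood at 6.09 TPM for the AVC, 8.16 for the OFT, 4410 for the atria, 886 for the ventricles and 425 for the *Twist1* null AVC. These levels rest on 37, 43, 20581, 3741 and 5521 tags. Values of the 5 libraries are given in this order from here on where no library is named. The libraries fell into separate ranges, with the wild-type canal and outflow tract close to each other and the other 3 libraries far above them. *Mt2* ranked as the 13th gene of 9777 by tags in the atria, as the 123rd of 9721 in the ventricles and as the 247th of 12608 in the null, but as the 8967th of 11915 in the AVC. The 95% counting interval of the AVC (4.29 to 8.39) overlapped that of the OFT, which began at 5.91, and those of the atria (4350 to 4471), the ventricles (858 to 915) and the null (414 to 437) were apart from each other and from these. Such intervals cover counting error only, since no group was repeated.

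In the contrast that chose it, *Mt2* in the AVC was lower than in the summed atria and ventricles (2736 TPM) by a log2 ratio of -8.81, the largest in size among 10117 genes with tags on both sides. The gene next to it in that order was *Cacna2d2*, a calcium channel subunit, at 8.17, and the gene next lowest in the AVC was the embryonic globin *Hbb-y* at -7.36. The median over all genes in this contrast was 1.23. In this contrast 51.5% of 12503 genes were called (edgeR exact test, unadjusted p under 0.05), 43.4% as higher in the AVC and 8.12% as lower. With TMM normalization the split became 3206 higher and 2193 lower in place of 5427 and 1015, and the median moved to 0.28. Against the atria alone the *Mt2* ratio was -9.50 and against the ventricles alone -7.18. For the OFT, set against the same chamber libraries, it was -8.39 beside a median of 1.07 and 49.5% of genes called, and the split there moved from 5056 higher and 1106 lower to 3257 and 2201 with TMM.

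Between the chambers, *Mt2* was lower in the ventricles than in the atria by a log2 ratio of -2.32 (95% counting interval -2.37 to -2.27), or 4.98-fold, beside a median of 0.31 over all genes. No p is given, since both libraries took part in the choice of *Mt2*. Neither *Slc30a1* nor *Mtf1* was called in this comparison, where 20.1% of 10705 genes were called, 11.1% as higher in the ventricles and 9.03% as lower.

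In the *Twist1* null AVC *Mt2* was at 425 TPM beside 6.09 in the wild-type AVC, a log2 ratio of 6.13 (95% counting interval 5.66 to 6.63) or 69.9-fold. No p is given, since the AVC library took part in the choice of *Mt2*. *Twist1* itself, the deleted gene, was at 918, 299, 63.4, 55.9 and 4.55 TPM, lowest in the null. Of all 12963 genes 24.6% were called in the null against the AVC, 1539 (11.9%) as higher and 1648 (12.7%) as lower in the null, and 1926 and 1213 with TMM normalization.

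**Figure D1:**
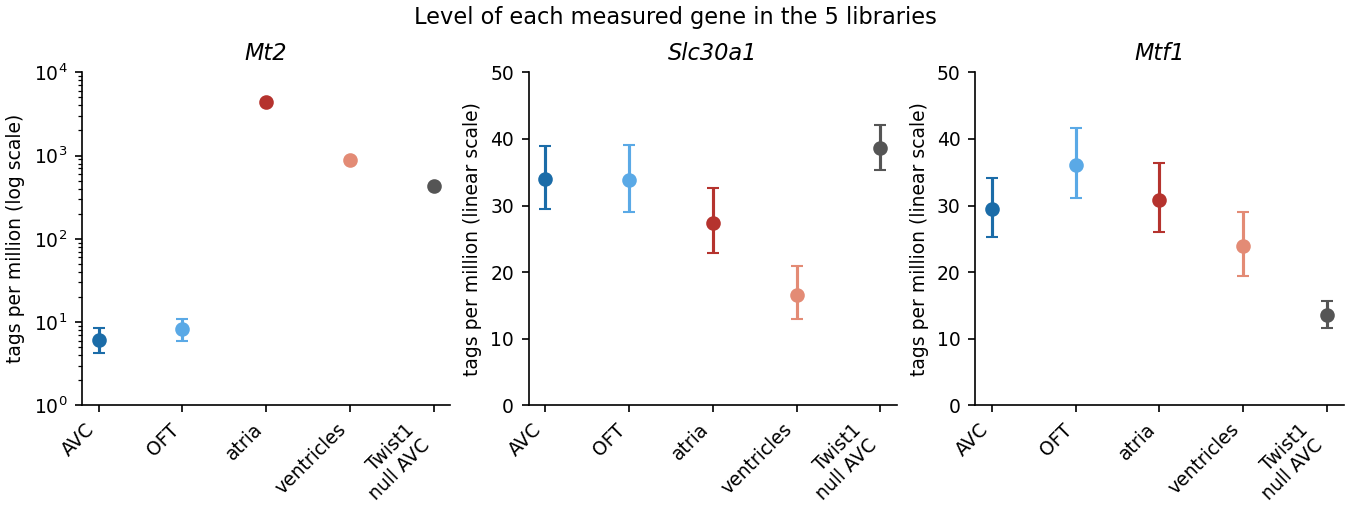
TPM (vertical axes, logarithmic for *Mt2* and linear for the others) of *Mt2*, *Slc30a1* and *Mtf1* in each of the 5 libraries, with 95% counting intervals as bars and 1 library per point. *Mt2* runs from 6.09 in the AVC to 4410 in the atria, while *Slc30a1* stays between 16.6 and 38.6 and *Mtf1* between 13.6 and 36.1.

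Nearly all *Mt2* tags came from the last site before the poly(A) tail, 40 bases from the transcript end. Its share was 100% in the AVC, OFT and ventricles, 99.97% in the atria and 99.6% in the null. The rest were 7 tags from a coding site in the atria and 23 tags from another 3′ UTR site in the null. Tags that differ from the main tag at 1 base were not counted for *Mt2*. There were 2508 of them in 12 types in the atria and 192 in 1 type in the ventricles, or 12.2 and 5.13% of the main tag, and none was listed elsewhere.

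The main *Mt2* tag begins with T after CATG. Between libraries, tags that begin with T shifted as a class, and those values are set beside the *Mt2* ratios. In the AVC against the chambers the median log2 ratio was 0.65 over 3748 such tags and 1.28 over all 14659 tags, where *Mt2* was at -8.81. In the null against the AVC the medians were 1.23 for tags that begin with T and 0.17 for all tags, where the main *Mt2* tag was at 6.12. In the ventricles against the atria they were 0.54 and 0.37, where *Mt2* was at -2.32. The part of tag sequence in the *Mt2* ratios was not tested.

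Red cell genes moved with *Mt2* across the libraries. The summed level of the erythroid list, of which 11 of 13 genes had tags, was 2435, 3089, 215498, 46756 and 27406 TPM, which puts the libraries in the order of *Mt2*. *Hbb-y* and *Hbb-bh1* made up most of that sum in each library except the AVC, where they were at 598 and 605 TPM and *Hba-x* at 1204. Against the order of *Mt2*, 6 of the 11 genes were higher in the null than in the ventricles by their levels, among them *Hba-x* at 5359 and 2354 TPM and *Alas2* at 22.9 and 21.5. *Slc4a1* was at 0 in the AVC, and *Klf1* and *Gata1* were at 0 in the OFT, genes named here after their values were seen. Of the list, 10 of 11 tested genes were called lower in the AVC than in the chambers, 7 of 11 lower in the ventricles than in the atria, and 7 of 11 higher in the null than in the AVC (10, 9 and 8 with TMM). Over all genes tested 8.12, 9.03 and 11.9% were called in these directions.

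The globin *Hbb-y*, an embryonic beta chain of the primitive red cell, had the pattern most like that of *Mt2*. Its levels were 598, 1097, 155319, 35370 and 15446 TPM. Likeness was measured over the 5 libraries as the root mean square difference of centred log2(TPM + 1) among 3954 genes that reach 50 TPM in at least 1 library, and *Hbb-y* differed from *Mt2* by 0.73. After it came *Spink4* (1.35), the globin *Hbb-bh1* (1.38), *Spa17*, *Uqcr11*, *Tomm70a*, *Efemp1* and *Plxnb1* (2.13). *Alas2*, which starts haem synthesis in red cells, ranked 18th and the globin *Hba-x* 58th. The 5 libraries include those of the contrast that chose *Mt2*, where *Hbb-y* was also the gene next lowest in the AVC. The order of likeness thus partly restates that choice and is no separate finding.

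*Mt2* was not a fixed share of any of these genes. As a percentage of *Hbb-y* it came to 2.84 for the atria (95% counting interval 2.80 to 2.88), 2.50 for the ventricles (2.42 to 2.59) and 2.75 for the null (2.68 to 2.83). The same percentage came to 1.02 for the AVC (0.736 to 1.41) and 0.744 for the OFT (0.552 to 1.005). Among the 3 libraries rich in red cell genes the ratio to *Hbb-y* thus stayed within a narrow range. Within it the ventricles still lay below the atria and the null by more than the counting error. In the AVC and OFT the ratio was lower than in all of these, also by more than the counting error. *Hbb-y* was the closest of 3954 genes to *Mt2*, so a steady ratio was partly built into its choice. As a percentage of *Hbb-bh1*, *Mt2* was at 1.01, 1.16, 9.19, 9.92 and 6.55, and of *Alas2* at 137, 123, 3611, 4111 and 1859. Both gave a lower value in the null than in the chambers. As a percentage of *Hba-x*, *Mt2* was at 0.506, 0.649, 37.5, 37.6 and 7.94. The atria and ventricles gave nearly the same value there, and the null a lower one. From the AVC to the atria *Mt2* differed 724-fold, *Hbb-y* 260-fold, *Hbb-bh1* 79.3-fold, *Alas2* 27.5-fold and *Hba-x* 9.78-fold, so the range of *Mt2* was wider than that of each. The red cell genes did not keep their own ratio either, since *Hbb-y* over *Hba-x* was 0.497 in the AVC and 13.2 in the atria. The main tags of *Mt2* and *Hbb-y* both begin with T, that of *Hba-x* with A and that of *Hbb-bh1* with G. The part of red cell RNA in the *Mt2* levels was not tested.

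**Figure D2:**
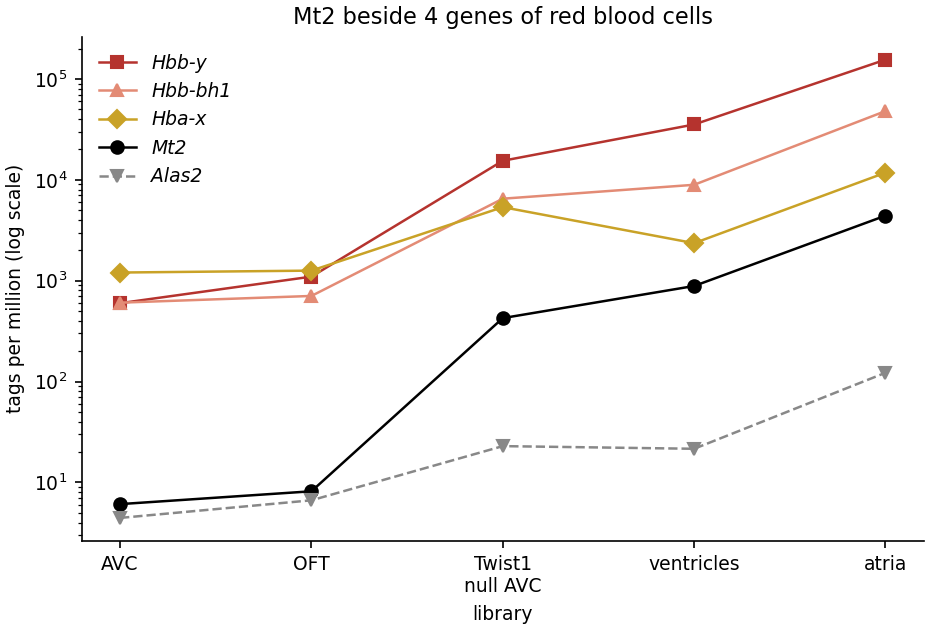
TPM on a logarithmic vertical axis for *Mt2* and the red cell genes *Hbb-y*, *Hbb-bh1*, *Hba-x* and *Alas2*, with the 5 libraries along the horizontal axis in the order of their *Mt2* level and lines joining the values of a gene. The line of *Mt2* runs parallel to that of *Hbb-y* from the null to the atria and climbs more steeply than every other line from the OFT to the null.

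Genes of visceral endoderm and liver, the tissues where metallothionein is best known in embryos, were low. Of 12 such genes 10 had tags, and their summed level was 32.3, 24.7, 113, 11.8 and 12.2 TPM, with 4, 6, 3, 9 and 3 of the 10 at 0. The sum was highest in the atria, as for *Mt2*, but was lower in the ventricles and the null than in the AVC, where *Mt2* was lowest. *Alb*, the serum albumin, reached 23.6 TPM in the atria and 1.65 in the AVC and was listed at 0 elsewhere. All 7 tested genes of this list were called lower in the ventricles than in the atria, beside 9.03% of all genes. With 9 of the 10 at 0 in the ventricles, most of these calls set an atrial level against an unlisted one. In the null 1 of 8 genes of the list was called higher and 4 lower than in the AVC (1 and 1 with TMM), beside 11.9 and 12.7% of all genes. Their part in the *Mt2* levels was not tested.

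Muscle and cushion genes served as a check of the labels. All 6 ventricular genes were called higher in the ventricles than in the atria, beside 11.1% of all genes. Among them was *Myl2*, the ventricular light chain, at 6196 and 55.5 TPM. The summed level of the 6 was 2675, 5227, 337, 7498 and 2727 TPM, highest in the ventricles. *Myh7*, also of this list, was at 1057, 2625, 5.79, 191 and 1454 TPM and so peaked in the OFT. Set against the chambers, the AVC had 3 of the 6 called as higher, *Myh7* among them, and 1, *Myl2*, as lower (3 and 2 with TMM). The ventricular list thus parted the ventricles from the atria, but not gene by gene from the other regions. Of 6 atrial genes 1 was called lower in the ventricles, beside 9.03% of all genes. The summed level of the atrial genes was 8535, 7953, 2118, 1894 and 5659 TPM. This list thus did not set the atria apart from the other regions. All 7 cushion mesenchyme genes were called higher in the AVC than in the chambers (5 with TMM), beside 43.4% of all genes. In the null 5 of 7 were called lower than in the AVC (4 with TMM), *Twist1* among them, beside 12.7% of all genes.

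*Slc30a1* (chr1:191906767-191913247), which exports zinc from the cell, was at 33.9, 33.8, 27.4, 16.6 and 38.6 TPM, from 206, 178, 128, 70 and 501 tags. The lowest and highest libraries were thus the ventricles and the null, and its levels lay far closer together than those of *Mt2*. The counting intervals of the null, AVC, OFT and atria overlapped from neighbour to neighbour, and that of the ventricles (12.9 to 20.9) lay below the others.

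*Slc30a1* was called in none of the contrasts tested by the edgeR exact test. The log2 ratio of the ventricles to the atria was -0.73 (counting interval -1.17 to -0.30, exact p = 0.348), that of the null to the AVC 0.19 (-0.05 to 0.43, exact p = 0.8002) and that of the OFT to the AVC -0.005 (-0.30 to 0.29, exact p = 1). In the last of these 12.6% of 12541 genes were called. Against the chambers, which is described only, the AVC was at 33.9 TPM and the chambers at 22.3, a log2 ratio of 0.61, which lies 0.62 under the median of all genes and turned to -0.35 with TMM normalization and -0.38 with DESeq2 size factors.

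Behind this level sum the *Slc30a1* tags changed place. The gene gave 602 tags at its last site, 111 bases from the transcript end, and 473 at a site 3183 bases from the end, 22 bases before an AATAAA, the signal for poly(A) addition. The last site, in the usual order, had 27.5, 29.0, 4.50, 5.68 and 18.3 TPM. The upstream site had 6.42, 3.23, 22.9, 10.9 and 20.3 TPM. Most tags of the AVC and OFT were thus at the last site, most tags of the chambers at the upstream site, and the null had nearly equal numbers.

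The share of *Slc30a1* tags at the last site was 81.1% in the AVC (95% exact binomial interval 75.04 to 86.2), 86.0% in the OFT (80.0 to 90.7), 47.3% in the null (42.9 to 51.8), 34.3% in the ventricles (23.3 to 46.6) and 16.4% in the atria (10.5 to 24.0). The intervals of the AVC and OFT overlapped each other, as did those of the null and the ventricles, and the atria overlapped the ventricles narrowly. The AVC exceeded the chambers by 58.3 percentage points. The median was -1.25 points over 3092 genes with at least 2 tag types and at least 150 tags on each side. Of these genes 10 (0.323%), *Slc30a1* included, had an AVC share above that of the chambers by as much or more. Shifts as large in the other direction were not counted. Both *Slc30a1* tags begin with A and have 6 and 5 G or C bases. Counted at the last site alone, the AVC to chamber ratio of *Slc30a1* was 2.44 in place of 0.61, so its size depends on whether the upstream tag is counted.

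**Figure D3:**
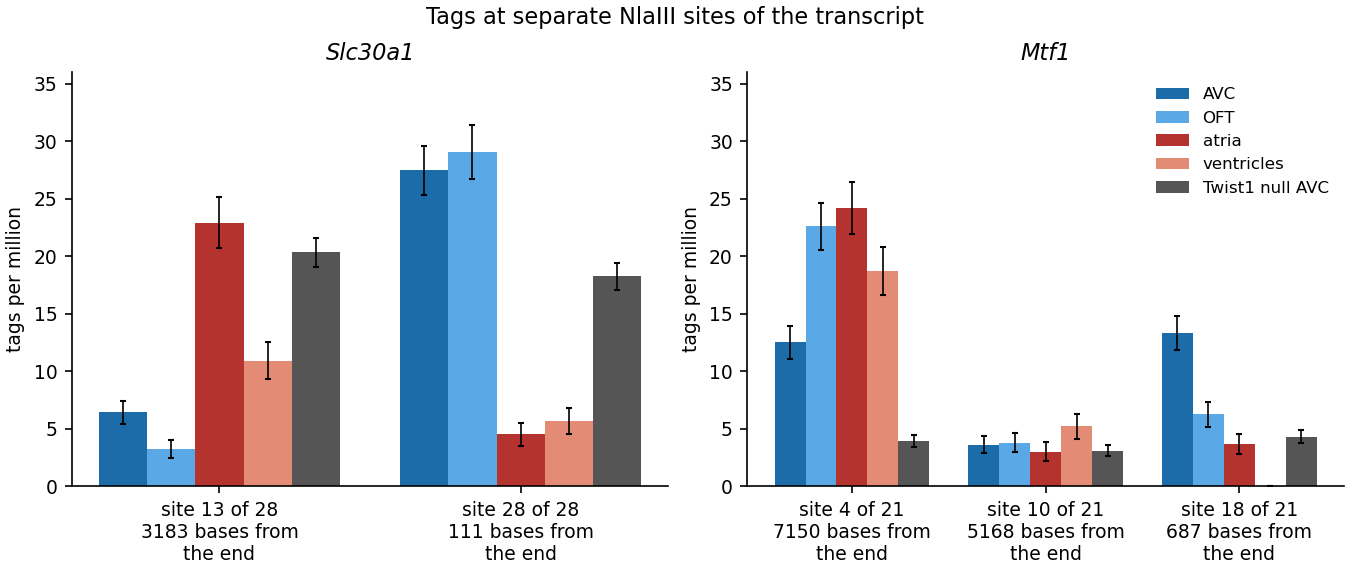
TPM (vertical axes from 0) at separate NlaIII sites of *Slc30a1* and *Mtf1*, named by their place among the sites of the transcript and their distance from its end, with 1 bar per library and 1 standard deviation of counting error. The last *Slc30a1* site is at 27.5 in the AVC and 4.50 in the atria while the upstream site is at 6.42 and 22.9, and the *Mtf1* site nearest the end of those drawn has 0 listed tags in the ventricles.

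*Mtf1* (chr4:124802104-124849800), the zinc sensor, was at 29.5, 36.1, 30.9, 23.9 and 13.6 TPM, from 179, 190, 144, 101 and 176 tags. The 4 wild-type libraries overlapped from neighbour to neighbour in their counting intervals, and the null (11.6 to 15.7) lay below them all. The log2 ratio of the null to the AVC was -1.12 (-1.43 to -0.81), or 2.17-fold, which did not pass the test (exact p = 0.134). It passed at a dispersion of 0.05 (exact p = 0.0225). The ventricles to atria ratio was -0.37 (-0.75 to 0.01, exact p = 0.630) and the OFT to AVC ratio 0.29 (-0.01 to 0.59, exact p = 0.702). In the AVC against the chambers, described only, the ratio was 0.10, which became -0.86 with TMM.

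The tags of *Mtf1* were spread over 8 types. The most abundant, with 438 tags, is from the coding site that is the last site of a short transcript and of one with a retained intron, 7150 bases from the end of the full-length transcript. It had 12.5, 22.6, 24.2, 18.7 and 3.93 TPM. The tag of the 3′ UTR site 687 bases from the end had 13.3, 6.26, 3.64, 0 and 4.32 TPM. The coding site held 42.5% of *Mtf1* tags in the AVC (35.1 to 50.1), 62.6% in the OFT (55.3 to 69.5), 78.5% in the atria (70.9 to 84.9), 78.2% in the ventricles (68.9 to 85.8) and 29.0% in the null (22.4 to 36.3). It was thus the larger part in the OFT and chambers and the smaller part in the AVC and null. The last site of the full-length transcript had 12 tags, all in the null, or 0.925 TPM. The smallest count that could be listed was 0.988 TPM for the AVC and more for the other wild-type libraries. The same level could thus go unlisted in each of them, and use of this site cannot be compared between libraries.

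Other zinc transporters were taken from the SLC30 family, whose members mostly move zinc out of the cytosol, and the SLC39 family, which moves it in. Of 10 SLC30 genes 7 had tags and of 14 SLC39 genes 11. In the AVC against the chambers 3 of 7 SLC30 genes were called higher and 1 lower, and 4 of 11 SLC39 genes higher, with list medians of 1.36 and 1.45 beside 1.23 over all genes, of which 43.4% were called higher and 8.12% lower. With TMM these became 2 higher and 2 lower, and 2 higher. *Slc30a9*, the family member with the most tags, was at 254, 277, 43.5, 55.2 and 208 TPM, and in the AVC exceeded the chambers by 2.37 on the log2 scale (exact p = 0.00174), a call that TMM did not make (1.42, exact p = 0.0535). *Slc39a10*, an importer of the plasma membrane, was at 52.8, 54.9, 3.64, 8.997 and 63.6 TPM, with a log2 ratio of 3.09 over the chambers (exact p = 0.000114). Both were thus low in the chambers, where *Mt2* was high. In the null, where *Mt2* was also high, the ratios of *Slc30a9* and *Slc39a10* to the AVC were -0.29 and 0.27 and did not pass the test (exact p = 0.690 and 0.713).

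*Slc30a10*, a manganese exporter of the same family, had 0 listed tags in the AVC and OFT, and its 63, 9 and 58 tags in the other 3 libraries put the atria at 13.5 TPM, the ventricles at 2.13 and the null at 4.47. It was thus highest in the atria and unlisted where *Mt2* was lowest, but unlike *Mt2* stood higher in the null than in the ventricles. A 0 here means that no tag type reached 6 counts, so no fold is given against those libraries. It was called lower in the AVC than in the chambers (exact p = 5.55e-07), higher in the null than in the AVC (exact p = 4.95e-05) and lower in the ventricles than in the atria by a log2 ratio of -2.66 (exact p = 0.00417). *Slc30a5*, an exporter of the secretory pathway, was called higher in the null than in the AVC by 1.90 (exact p = 0.0124), at 53.4 and 14.3 TPM. After Benjamini-Hochberg adjustment neither this call nor that of *Slc30a10* between ventricles and atria passed 0.05. In the ventricles against the atria 2 of 7 SLC30 genes were called in each direction (1 higher and 2 lower with TMM) and 1 of 10 SLC39 genes lower. Over all genes 11.1% were called higher and 9.03% lower there. Of the genes called, *Slc30a4* was at 0 in the atria and *Slc30a7* at 0 in the ventricles. In the OFT against the AVC no gene of either family was called, beside 12.6% of all genes. Among the importers *Slc39a8* had 42.5 TPM for the AVC beside 110 for the null (exact p = 0.0627) and *Slc39a7*, which releases zinc from the secretory pathway, at 115 and 44.2 (exact p = 0.0601), neither of which passed the test (with TMM *Slc39a8* did).

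**Figure D4:**
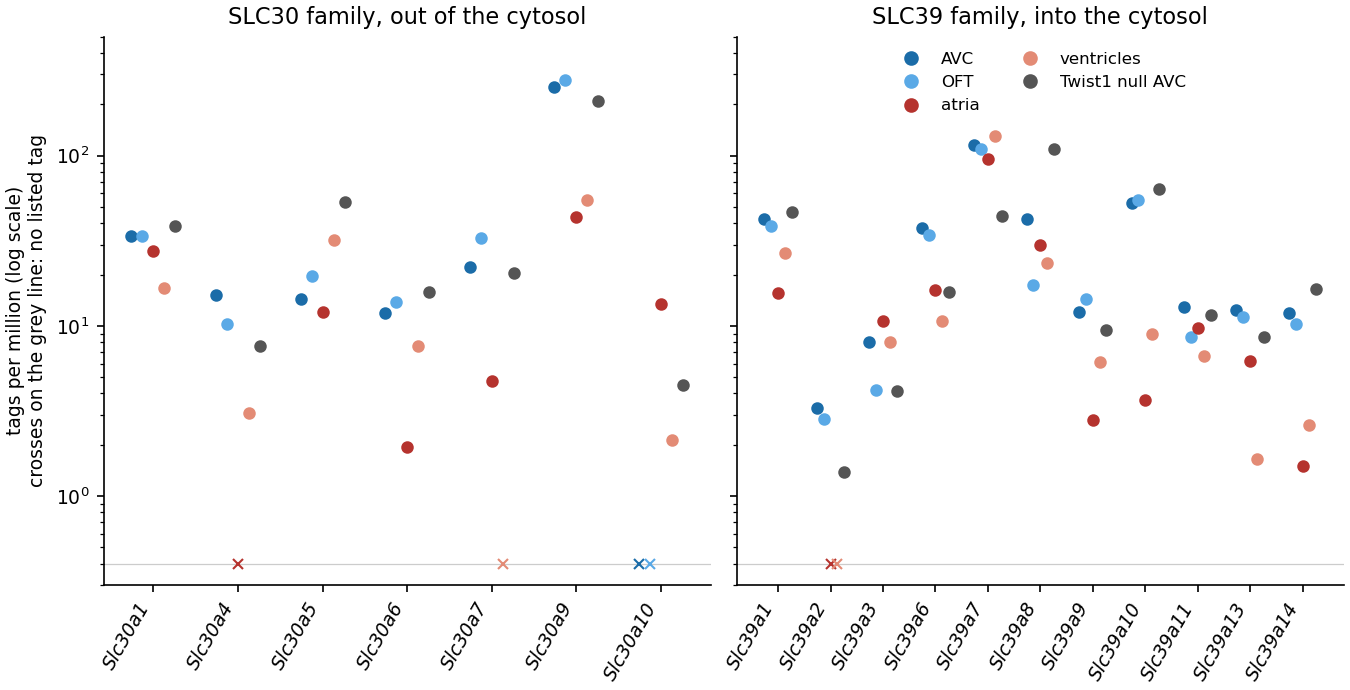
TPM (logarithmic vertical axis) of the SLC30 and SLC39 zinc transporters with tags, 1 point per library and gene, with crosses for libraries where no tag was listed. Panel titles name the usual direction of transport of a family and not that of each member. *Slc30a9* and *Slc39a10* are low in the atria and ventricles and *Slc30a10* is listed in the atria, ventricles and null alone, while *Slc39a7* lies between 44.2 and 130 in every library.

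Of 7 other genes reported as targets of MTF1, 4 were called higher in the AVC than in the chambers and 1, *Slc30a10*, lower, beside 43.4 and 8.12% of all genes. With TMM 3 were called higher and 1 lower. *Csrp1*, a LIM protein of smooth muscle, was at 260, 390, 62.8, 121 and 407 TPM, and *Selenoh*, a nuclear selenoprotein, stayed between 230 and 420. In the null against the AVC 1 of 7 was called higher and 1 lower, beside 11.9 and 12.7% of all genes.

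Lists for other metals and stimuli linked to metallothionein each had more genes called higher than lower in the AVC against the chambers, where 43.4% of all genes were called higher and 8.12% lower, and these counts moved with the scaling. With TMM the copper list had 3 higher and 4 lower, the glucocorticoid list 0 and 1, the oxidative stress list 1 and 3, the hypoxia list 4 and 2, the heat shock list 3 and 2 and the iron list 3 and 1. The counts that follow are those without it. For those of the null against the AVC, 11.9% of all genes were called higher and 12.7% lower. Of 12 copper genes 3 were called higher and 0 lower in the AVC than in the chambers, with a median of 0.08 beside 1.23, and *Sod1*, the copper and zinc superoxide dismutase, was at 729, 545, 676, 615 and 394 TPM. Of 8 glucocorticoid response genes 7 were tested and 3 called higher in the AVC, and none was called in the null against the AVC. Of 9 oxidative stress genes 2 were called higher and 1 lower in the AVC than in the chambers, and 2 higher and 1 lower in the null than in the AVC, among them *Txnrd1*, a thioredoxin reductase, with 44.1 TPM for the AVC beside 141 for the null. Of 11 hypoxia genes 7 were called higher and 2 lower in the AVC. *Ldha*, which makes lactate, was among those lower in the AVC, at 2096, 2084, 4715, 8570 and 6098 TPM, and was called higher in the null than in the AVC. Of 8 heat shock genes the AVC had 3 called higher than in the chambers, and the null 1 called lower than in the AVC. In the iron list 6 of 10 were called higher in the AVC than in the chambers, with *Ftl1*, the ferritin light chain, at 899, 783, 143, 105.1 and 428 TPM. Its partner *Fth1*, the heavy chain, was at 166, 159, 500, 283 and 679 TPM, with a rise from the AVC to the null of 2.04 on the log2 scale (exact p = 0.00637). This rise did not pass 0.05 after Benjamini-Hochberg adjustment.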

How the data were processed

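Tag-seq libraries of 5 tissues were analysed. The authors deposited the count of each tag type per library, without normalization, for tag types with more than 5 tags, each the CATG and the 17 bases after it in reads that passed a quality filter. The labels name mm9, and coordinates here are of GRCm38. With Python 3.11.15 and pandas 2.3.3, tags were matched in sense to every CATG site of 33363 RefSeq-linked GENCODE M21 transcripts with 20 adenines added, and tags of 1 gene were summed. The totals ran from 4223810 tags (ventricles) to 12977237 (null), of which 70.7 to 74.5% matched 1 gene and 0.242 to 21.5% were haemoglobin tags. The smallest listed count, 6, is 0.462 to 1.42 TPM. Libraries were compared by the exact test of edgeR 4.0.16 (R 4.3.3, two-sided, dispersion 0.12 as in the study's methods, all deposited tags as library sizes, unadjusted p under 0.05), with Benjamini-Hochberg values over all genes tested. The test was tried on simulated counts first. Intervals are exact Poisson or binomial at 95%, and those of ratios to a red cell gene use the normal approximation on the log scale. The *Mt2* counts include no tag 1 base away. The genes and lists were chosen with earlier results of these data known. Zinc transporters could all be named, from other lists at most 4 genes with the most tags, and for likeness to *Mt2* the 8 closest. The erythroid genes *Slc4a1*, *Klf1* and *Gata1* were named outside this rule, after their values were seen. Alternatives changed scaling (TMM, DESeq2 1.42.0 size factors, haemoglobin left out), dispersion (0.05, 0.4), tag and gene limits, site, depth and libraries.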

Additional observations from a re-analysis of the deposited data

Results flagged for a closer look

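A tag antisense to *Mt2*, which no comparison used, was listed in 4 of the 5 libraries. It reads away from the same CATG as the main *Mt2* tag, on the other strand, and matches the sense strand of 0 annotated genes. It was at 70.1 TPM in the atria (327 tags), 6.39 in the ventricles (27 tags), 4.08 in the *Twist1* null AVC (53 tags) and 3.04 in the OFT (16 tags), and had 0 listed tags in the AVC. As a share of the main sense tag this was 1.59% in the atria, 0.722% in the ventricles, 0.964% in the null and 37.2% in the OFT. A second antisense tag of *Mt2*, from another site, had 8 tags in the AVC and 11 in the null. The source of these tags was not tested.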

How the results depend on the processing

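Of 182 member ratios under the alternatives tried 150 kept their direction and their side of the threshold, or stayed within the counting interval where no test was made. A change of dispersion or of the gene limit cannot move a ratio. Where no test was made, such alternatives were thus kept by construction. They are counted among the 150, which therefore overstates how well the ratios held. *Mt2* in the ventricles against the atria was at -2.64 with TMM, -2.63 with DESeq2 size factors, -2.60 without haemoglobin tags in the totals and -2.41 with tags 1 base away added. *Mtf1* in the null against the AVC was called at dispersion 0.05, with its ratio at -1.12. With TMM and DESeq2 size factors the AVC to chamber ratios became -9.76 and -9.80 for *Mt2*, -0.86 and -0.89 for *Mtf1* and -0.35 and -0.38 for *Slc30a1*, and the OFT to chamber ratios -9.25 and -9.26, -0.47 and -0.49, and -0.25 and -0.27. *Slc30a1* and *Mtf1* thereby turned in both contrasts, and the OFT to AVC ratio of *Slc30a1* turned to 0.0787 with either. At the last site alone *Slc30a1* was at 2.44 for the AVC and 2.52 for the OFT against the chambers, and turned to 0.34 in the ventricles against the atria, to -0.59 in the null against the AVC and to 0.0795 in the OFT against the AVC. Without the atria the AVC ratios were -7.18 for *Mt2* and 1.03 for *Slc30a1*, and without the ventricles -9.50 and 0.31. For the OFT they were -6.76 and 1.03, and -9.08 and 0.30.

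In the order ventricles against atria, null against AVC and OFT against AVC, 2156, 3187 and 1577 genes were called. After Benjamini-Hochberg adjustment 671, 1166 and 392 were, at dispersion 0.05 there were 3408, 5448 and 2573, at dispersion 0.4 there were 889, 812 and 687, and among genes with at least 50 tags 454, 2087 and 323. The AVC and the OFT against the chambers gave 2872 and 2837 calls at dispersion 0.4, and the OFT 4092 among genes with at least 50 tags. Without tags that begin with T *Mt2* kept 7 tags, all in the atria, and gave no ratio, and *Mtf1* gave none at the last site alone. The causes of these shifts were not tested. No paired analysis was possible because every group has 1 library. Depth limits *Mt2* in the AVC and OFT, where it rests on 37 and 43 tags.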

Other observations

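The genes *Slc30a1* and *Mtf1* had antisense tags too. Those of *Slc30a1* numbered 35 (AVC), 32 (OFT), 8 (atria), 0 (ventricles) and 39 (*Twist1* null AVC), or 17.0, 18.0, 6.25, 0 and 7.78% of its sense tags. Those of *Mtf1* numbered 0, 22, 0, 46 and 72 in the same order. That is 45.5% of the sense tags of *Mtf1* in the ventricles and 40.9% in the null.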
